A study of Mus musculus with 6 samples.

Results

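Reactive astrocyte genes are transcripts that astrocytes raise after injury or inflammation, and their probes were followed here in hypothalamic RNA of *Fmr1* KO and WT mice. The set was a list of 30 genes, namely genes raised in reactive astrocytes in general (pan-reactive), genes of the A1-type and A2-type states and 3 further reactivity genes, and a gene entered if a probe for it was in both the raw counts and the normalized values. Probes for 28 of the 30 genes were found among 787 probes, and 19 of the 28 had more than 20 raw counts in at least 3 of the 6 lanes, the minimum used for testing. *Aspg* and *Ggta1* were not analysed here. The groups were 3 *Fmr1* KO mice (FVB.129P2-Fmr1tm1Cgr/J) and 3 congenic WT mice, all 8-week-old females in diestrus, and each mouse gave 50 ng of RNA from dissected hypothalamus to 1 lane of the nCounter Mouse Neuroinflammation Panel with added hypothalamic probes. The null allele of the *Fmr1* KO line is present in all tissues, and no check of the genotype labels was made on its transcript, which was not analysed here. The assay counts colour-coded probes bound to RNA without amplification, and a normalized count is the raw count times the authors' factor for that lane. *Fmr1* KO mice ran in lanes 4 to 6 and WT mice in lanes 1 to 3, so lane and genotype cannot be told apart.

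Astrocytes respond to injury, infection and cytokines by changing shape and transcription. Cytokines of the interleukin-6 family, among them oncostatin M and leukemia inhibitory factor, act through STAT3 and raise many pan-reactive genes, while microglial interleukin-1α, TNF and C1q induce the A1-type genes in culture. A2-type genes were described in mice after ischemia. Few of these genes are particular to astrocytes in bulk tissue. *Vim* is also made by tanycytes and endothelial cells, *Srgn* by blood and endothelial cells and *Amigo2* by neurons, and in bulk RNA fewer cells of a type cannot be told apart from less RNA per cell.

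Total counts were 165514 to 339934 per lane. *Fmr1* KO replicate 2 had the lowest total and a lane factor of 1.72, against 0.767 and 1.13 in the other *Fmr1* KO lanes and 0.922 to 0.997 in the WT lanes. The 133 probes that stayed under 20 raw counts in all 6 lanes averaged 10.5, 10.5 and 7.86 raw counts in *Fmr1* KO replicates 1, 2 and 3, and 9.92, 9.10 and 9.93 in WT replicates 1, 2 and 3. This floor did not follow the lane totals, and after scaling it stood at 17.9 in *Fmr1* KO replicate 2, against 8.04 and 8.86 in the other *Fmr1* KO lanes and 9.07 to 9.31 in the WT lanes. Raw counts of the pituitary gene *Prl* were 4, 6 and 9 in *Fmr1* KO replicates 1, 2 and 3, and 123, 6 and 1626 in WT replicates 1, 2 and 3. Astrocyte RNA was followed on 6 astrocyte markers of the panel (*Slc1a3*, *Gja1*, *S100b*, *Aldh1l1*, *Sox9* and *Egfr*), all of which passed the count minimum. That does not show which cells made the member transcripts. *Gfap* and *Aqp4* were not analysed here.

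The 250 bases before the transcription start are shown for 3 members to which the results below return, from RefSeq on GRCm38.p6, 5′ to 3′ on the gene's strand. *Serpina3n* (chr12:104406458-104406707, plus strand) and *Osmr* (chr15:6874314-6874563, minus strand) are the members whose groups of mice did not overlap. *Socs3* (chr11:117969367-117969616, minus strand), a feedback inhibitor of STAT3 signaling, is shown for its match to the STAT motif TTCNNNGAA, which reads the same on both strands. Capitals mark that motif, which the other windows do not hold.
Serpina3n: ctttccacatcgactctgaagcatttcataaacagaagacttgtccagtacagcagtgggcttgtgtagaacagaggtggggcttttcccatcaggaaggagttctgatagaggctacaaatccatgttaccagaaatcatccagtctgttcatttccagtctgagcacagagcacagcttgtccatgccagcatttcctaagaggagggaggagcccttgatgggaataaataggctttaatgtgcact
Osmr: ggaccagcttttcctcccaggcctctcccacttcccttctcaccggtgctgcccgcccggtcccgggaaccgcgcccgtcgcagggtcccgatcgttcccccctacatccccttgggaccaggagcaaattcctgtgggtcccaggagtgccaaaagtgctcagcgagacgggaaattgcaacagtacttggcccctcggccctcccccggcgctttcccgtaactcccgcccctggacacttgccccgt
Socs3: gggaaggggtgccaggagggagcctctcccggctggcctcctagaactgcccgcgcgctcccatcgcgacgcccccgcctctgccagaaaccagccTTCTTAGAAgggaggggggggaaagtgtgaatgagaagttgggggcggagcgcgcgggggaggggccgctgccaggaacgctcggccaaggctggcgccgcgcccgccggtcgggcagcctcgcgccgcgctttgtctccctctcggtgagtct

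Of the 28 genes, 24 had a window in this table, with 33 windows in all since some genes have several starts. The motif stood in 6 windows of 5 members, *Emp1*, *Socs3*, *Sphk1*, *Steap4* and *Tgm1*, and the pair of *Sphk1* windows overlap and share 1 match. That is 18.2% of the members' windows, against 7.02% of all 32851 windows of this length. The match in *Socs3* (TTCTTAGAA) began 154 bases before the start and that in *Steap4* (TTCCCGGAA) 116 bases before it. A match of letters is a description and the assay measured no binding.

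None of the 19 tested reactive astrocyte genes was called different between *Fmr1* KO and WT hypothalami after adjustment over the panel. The median standard error of the log2 fold change was 0.204 in these genes, against 0.146 for all tested probes. Intervals were wide for genes with few counts, as for *Socs3*, with a 95% interval of the ratio of 0.62 to 2.3. The plot of fitted changes shows the 19 tested members on both sides of 0, with 11 below and 8 above, where all tested probes had 47.3% below and 52.7% above, and log2 fold changes of *Fmr1* KO over WT from -0.29 to 0.33. Their median was -0.049, against 0.008 for all 601 tested probes. At an adjusted p under 0.05 from edgeR, 0 of the 19 members were called, against 0.832% of the tested probes (0.499% higher and 0.333% lower in *Fmr1* KO). At an unadjusted p under 0.05, *Serpina3n* and *Amigo2* were on the lower side and no member on the higher side, against 2.83% of all tested probes on the lower side, 5.66% on the higher side and 8.49% in either direction. DESeq2 and limma also called no member at an adjusted p under 0.05, and the count of members at an unadjusted p under 0.05 on the lower side was 0 in DESeq2 and 2 in limma. Of all tested probes, 1.5% in DESeq2 and 2.83% to 3% in limma were on that side. Beyond 1.2 times the WT mean, a ratio the methods use, lay *Osmr*, *Ptgs2* and *Socs3*, or 3 of 19 members against 15.1% of all tested probes, and no member lay below 0.8 times, against 3.49%. With 3 mice in each group, the smallest two-sided p of an exact permutation test is 0.1, and none was run for single genes.

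**Figure D1:**
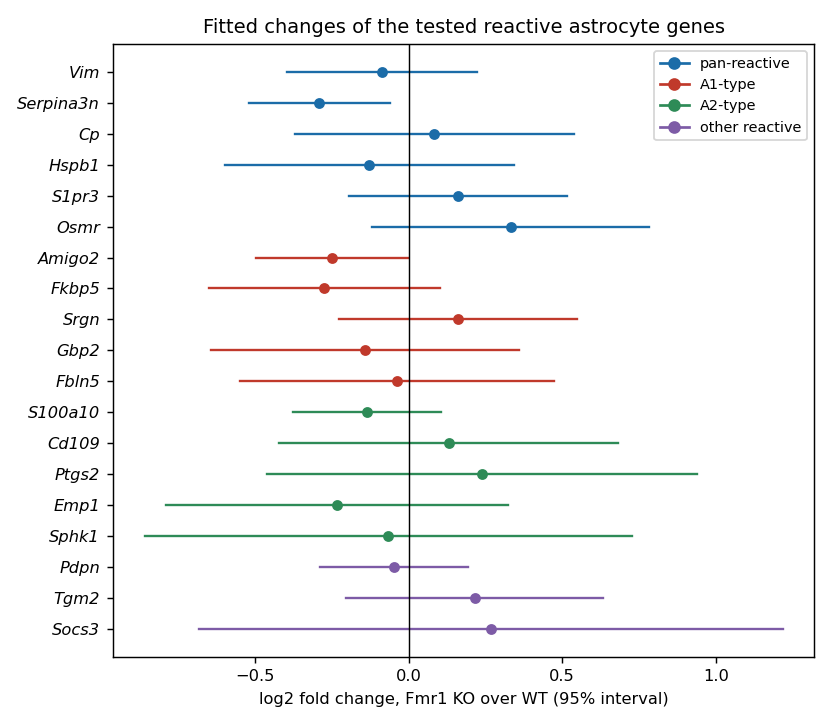
Log2 fold changes of *Fmr1* KO over WT with 95% intervals for the 19 tested members (horizontal axis, edgeR fit on 3 *Fmr1* KO and 3 WT mice), coloured by group of genes. The estimates lie between -0.29 and 0.33 and the intervals of all but *Serpina3n* and *Amigo2* include 0.

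*Serpina3n*, a secreted serine protease inhibitor of the acute phase and a standard pan-reactive marker, ranked first among the members by p, and 26 of all 601 tested probes. Normalized counts were 202, 218 and 196 in *Fmr1* KO replicates 1, 2 and 3, against 250, 266 and 234 in WT replicates 1, 2 and 3. Every *Fmr1* KO mouse lay below every WT mouse, which 6.82% of all tested probes did, and *Serpina3n* was the only such member. The means were 205 ± 11.5 in *Fmr1* KO and 250.2 ± 15.98 in WT mice (SD, n = 3 each). On the log2 scale the fitted difference was -0.29 with a standard error of 0.10, and the adjusted p from edgeR was 0.394. The 95% interval of the ratio of *Fmr1* KO to WT was 0.697 to 0.958. Within each group the spread was close to counting error, with a coefficient of variation of 5.58% in *Fmr1* KO and 6.39% in WT mice, where counting alone gives 7.70% and 6.17%. The groups stayed apart when the floor of low probes was subtracted from each lane, with 187 to 200.1 in *Fmr1* KO and 225 to 257 in WT mice. The unadjusted p was above 0.05 without WT replicate 2, without *Fmr1* KO replicate 3 and in DESeq2, where the log2 fold changes were -0.24, -0.26 and -0.29. The study names *Serpina3n* from these samples, so its place is not independent evidence. *Serpina3n* belongs to a cluster of closely related mouse genes, and the probe, which starts at base 119 of NM_009252.2, was not checked against them.

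Summed normalized counts of the 6 astrocyte markers were 7173, 7527 and 7788 in *Fmr1* KO replicates 1, 2 and 3, against 8174, 8265 and 8776 in WT replicates 1, 2 and 3, and these groups did not overlap either. *Slc1a3* and *Gja1*, a glutamate transporter and a gap junction protein, made up most of this sum and had log2 fold changes of -0.18 and -0.20 (adjusted p = 0.459 and 0.506 from edgeR). Both had an unadjusted p under 0.05 on the lower side, or 2 of the 6 markers against 2.83% of all tested probes. On the higher side were 0 of the markers, against 5.66%. In both genes every *Fmr1* KO mouse lay below every WT mouse, as in 6.82% of all tested probes. The study also names *Slc1a3* as downregulated from these samples, so its place is not independent evidence. The other 4 markers overlapped between the groups, with log2 fold changes of -0.12 for *Sox9*, -0.095 for *Aldh1l1*, 0.004 for *S100b* and 0.049 for *Egfr*. The part of astrocyte RNA content in the *Serpina3n* values was not tested. Microglial and endothelial markers overlapped between the groups. Over 12 of 12 microglial markers above the minimum the sums were 1608 to 1902 in *Fmr1* KO and 1721 to 1937 in WT mice, and over 8 of 8 endothelial markers they were 772 to 973 in *Fmr1* KO and 794 to 975 in WT mice.

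*Osmr*, the oncostatin M receptor subunit that signals through STAT3, was the member with the highest log2 fold change. Its raw counts were 59, 27 and 39 in *Fmr1* KO replicates 1, 2 and 3, and 34, 34 and 45 in WT replicates 1, 2 and 3. As normalized counts these were 45.2, 46.3 and 43.9 in *Fmr1* KO mice, against 31.9, 33.9 and 41.5 in WT mice. No *Fmr1* KO value was as low as the highest WT value, again in 1 of 19 members and in 6.82% of all tested probes. The fit gave 0.33 on the log2 scale with a standard error of 0.20 (adjusted p = 0.726 from edgeR), and the 95% interval of the ratio ran from 0.922 to 1.72. The *Fmr1* KO values spread by 2.70%, where counting error alone gives 16.4%, a spread narrower than counting alone would give. With the floor of low probes subtracted, the values were 37.2, 28.4 and 35.1 in *Fmr1* KO mice and 22.6, 24.8 and 32.3 in WT mice, and the groups overlapped.

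**Figure D2:**
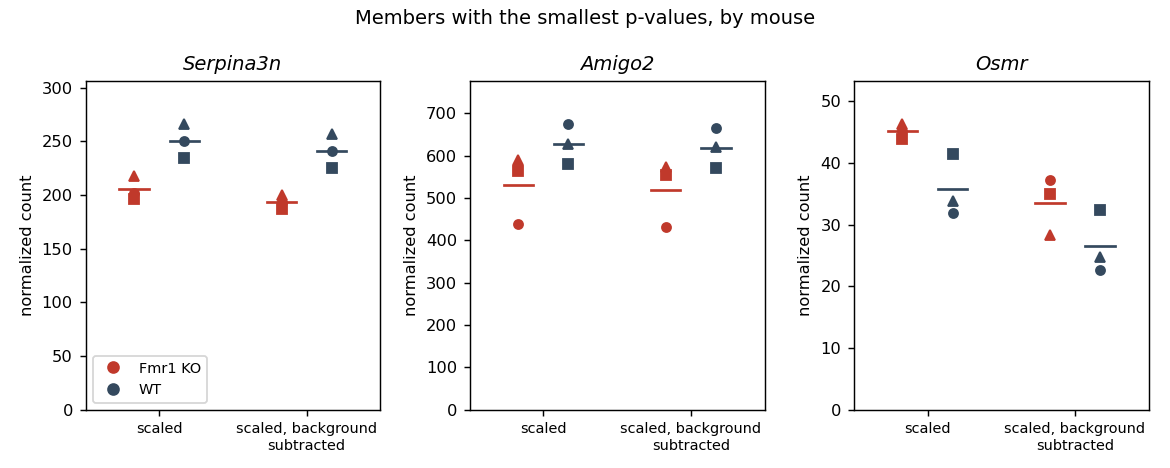
Normalized counts of *Serpina3n*, *Amigo2* and *Osmr* in each mouse (vertical axes, starting at 0), as scaled by the authors' lane factors and after the mean of the low probes was subtracted from each lane. Circles, triangles and squares are replicates 1, 2 and 3 and bars are means of 3 mice. *Fmr1* KO mice stay below WT mice for *Serpina3n* in both, and *Osmr* separates only before subtraction.

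The other 4 tested pan-reactive genes had means within 1.2 times of each other and overlapping mice. *Vim*, the intermediate filament protein vimentin, had 237, 273 and 314 normalized counts in *Fmr1* KO and 295, 241 and 335 in WT replicates 1, 2 and 3. *Cp*, the copper-binding ferroxidase ceruloplasmin, had 124, 208 and 227 in *Fmr1* KO and 162, 155 and 200.04 in WT replicates. *Hspb1*, a small heat shock protein, had 85.1, 163 and 101 in *Fmr1* KO and 111, 130 and 127 in WT replicates. The groups overlapped in these 3 genes, and *Fmr1* KO replicate 1 was the lowest of the 6 mice in each. For *Cp* and *Hspb1* the coefficient of variation was 29.4% and 35.3% in *Fmr1* KO mice, where counting alone gives 8.24% and 10.6%, and 13.9% and 8.40% in WT mice. The log2 fold changes were -0.088 for *Vim*, 0.083 for *Cp* and -0.13 for *Hspb1*, with adjusted p of 0.933, 0.951 and 0.934 from edgeR. Without *Fmr1* KO replicate 1 they were 0.021, 0.34 and 0.074. That of *Hspb1* was -0.40 without *Fmr1* KO replicate 2, that of *Cp* was -0.11 without *Fmr1* KO replicate 3, and that of *Vim* was 0.026 without WT replicate 3. *S1pr3*, a receptor of sphingosine-1-phosphate, had 98.9 to 126 normalized counts in *Fmr1* KO and 85.4 to 111 in WT mice, a log2 fold change of 0.16.

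*Amigo2*, a leucine-rich repeat adhesion protein and an A1-type gene, came next by p. Normalized counts were 440.05, 590 and 564 in *Fmr1* KO replicates 1, 2 and 3, against 675, 629 and 580 in WT replicates 1, 2 and 3. The groups overlapped, since *Fmr1* KO replicate 2 lay above WT replicate 3, and *Fmr1* KO replicate 1 was the lowest of all mice. The fit gave -0.25 on the log2 scale with a standard error of 0.11 (adjusted p = 0.587 from edgeR), with a 95% interval of the ratio of 0.708 to 0.998. Without *Fmr1* KO replicate 1 the log2 fold change was -0.12, and the unadjusted p was then above 0.05, as it was without WT replicate 1 (-0.19) or WT replicate 2 (-0.25). It was above 0.05 as well in DESeq2, with the replicate block, with a minimum of 50 for the mean raw count and with the test that the methods name, and it was under 0.05 in 10 of 17 alternatives.

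*Fkbp5*, a co-chaperone of the glucocorticoid receptor that glucocorticoids induce, had 103, 106 and 81.1 normalized counts in *Fmr1* KO and 95.7, 122 and 133 in WT replicates 1, 2 and 3. WT replicate 1 lay among the *Fmr1* KO mice, and the fit gave -0.27 on the log2 scale with a standard error of 0.17 (adjusted p = 0.726 from edgeR). *Srgn*, the core protein of the proteoglycan serglycin, had 95.8, 94.4 and 133 in *Fmr1* KO and 92.9, 85.7 and 111 in WT replicates. The third replicate was the highest of each group, and the log2 fold change of 0.16 was -0.019 without *Fmr1* KO replicate 3. *Gbp2*, an interferon-induced GTPase, had 35.3, 34.3 and 47.3 in *Fmr1* KO and 37.5, 39.9 and 51.6 in WT replicates. Here too the third replicate was the highest of each group, and the log2 fold change of -0.14 was 0.014 without WT replicate 3. *Fbln5*, a protein of elastic fibres, had 32.6 to 52.9 in *Fmr1* KO and 37.8 to 43.9 in WT mice. Of the 5 tested A1-type genes, 4 had a log2 fold change below 0, with a median of -0.14, and 0 passed the adjusted threshold from edgeR. *Amigo2* was the only one at an unadjusted p under 0.05. Of all tested probes, 47.3% had a log2 fold change below 0, and 2.83% had an unadjusted p under 0.05 on the lower side. Leaving out *Fmr1* KO replicate 1 gave a median of -0.043, and leaving out *Fmr1* KO replicate 3 gave -0.28. With the floor of low probes subtracted it was -0.31, in a limma fit where the other medians are from edgeR. The median over all tested probes was not taken for these alternative fits.

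**Figure D3:**
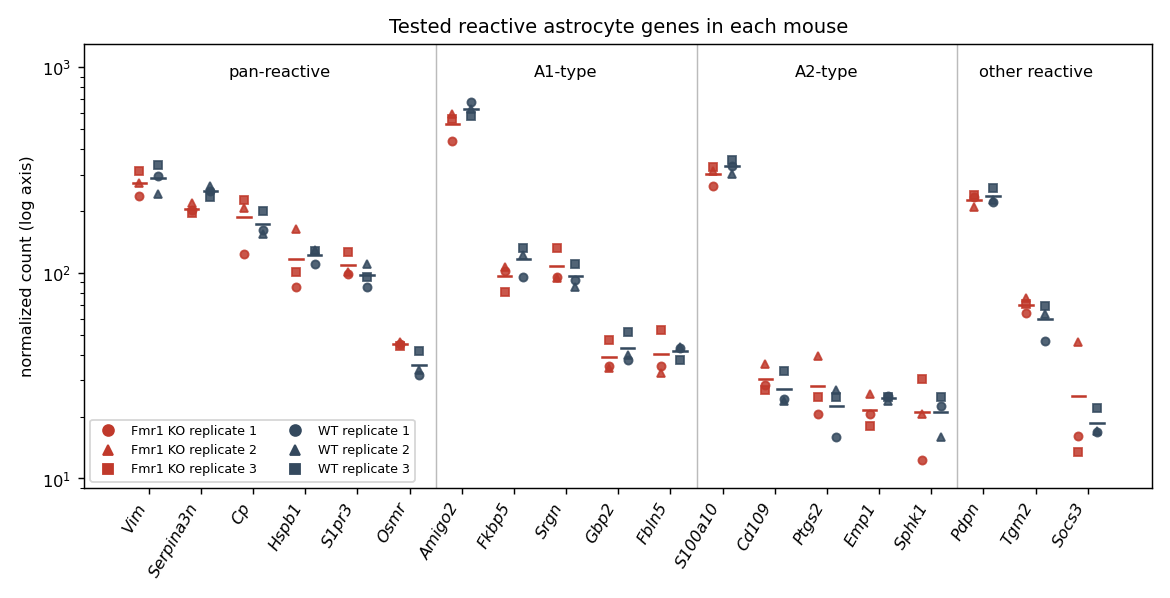
Normalized counts (vertical log axis) of the 19 tested members in each mouse, ordered by group of genes and by mean count. Bars are means of 3 *Fmr1* KO mice and 3 WT mice. The groups of mice overlap in every gene but *Serpina3n* and *Osmr*.

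Among the 5 tested A2-type genes, 1 had high counts. *S100a10*, the partner of annexin A2, had 264, 314 and 329 normalized counts in *Fmr1* KO and 332, 304 and 354 in WT replicates 1, 2 and 3. Its mice overlapped, and the fit gave -0.14 on the log2 scale with a standard error of 0.11 (adjusted p = 0.787 from edgeR), with a 95% interval of the ratio of 0.771 to 1.08. The other 4 stood close to the count minimum. *Cd109*, a co-receptor that restrains TGF-β signaling, had raw counts of 37, 21 and 24 in *Fmr1* KO and 26, 24 and 36 in WT replicates 1, 2 and 3. *Ptgs2*, the inducible cyclooxygenase, had raw counts of 27, 23 and 22 in *Fmr1* KO and 17, 27 and 27 in WT replicates. *Emp1*, a tetraspan membrane protein, had 27, 15 and 16 in *Fmr1* KO and 27, 24 and 27 in WT replicates. The raw counts of *Ptgs2* were thus alike in the 3 *Fmr1* KO lanes, while its normalized count of 39.5 in *Fmr1* KO replicate 2 lay above the 20.7 and 24.8 of the other *Fmr1* KO lanes and the 15.9 to 26.9 of WT lanes. The log2 fold changes of *Cd109*, *Ptgs2* and *Emp1* were 0.13, 0.24 and -0.23, with adjusted p of 0.934, 0.916 and 0.883 from edgeR, and that of *Ptgs2* was -0.006 without *Fmr1* KO replicate 2. With the floor of low probes subtracted, *Emp1* had 12.7, 7.81 and 9.16 in *Fmr1* KO replicates 1, 2 and 3, against 16.02, 14.85 and 15.73 in WT replicates 1, 2 and 3. These groups did not overlap, and limma then gave -0.68 on the log2 scale with a standard error of 0.43 (adjusted p = 0.636). Before subtraction *Fmr1* KO replicate 2 was the highest of all mice for *Emp1*, with 25.7 normalized counts. *B3gnt5*, a member under the minimum, was also lower in every *Fmr1* KO mouse after subtraction. The share of all probes without overlap after subtraction was not counted. *Sphk1*, the kinase that makes sphingosine-1-phosphate, had 12 to 27 raw counts in *Fmr1* KO and 16 to 27 in WT mice. The median log2 fold change of the 5 A2-type genes was -0.067, and that of the 6 pan-reactive genes was -0.003. Without *Fmr1* KO replicate 1 they were 0.18 and 0.16, and without WT replicate 3 they were 0.072 and 0.089. *Fmr1* KO replicate 1 was the lowest mouse for 36.6% of all tested probes.

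Of the 3 further reactivity genes, *Pdpn*, the membrane glycoprotein podoplanin, had 209 to 239 normalized counts in *Fmr1* KO and 221 to 260 in WT mice, with a 95% interval of the ratio of 0.818 to 1.14. *Tgm2*, a transglutaminase that crosslinks matrix proteins, had 63.6 to 75.5 in *Fmr1* KO and 46.9 to 69.1 in WT mice, a log2 fold change of 0.21. *Socs3* had raw counts of 21, 27 and 12 in *Fmr1* KO and 18, 17 and 24 in WT replicates 1, 2 and 3. As normalized counts it stood at 46.3 in *Fmr1* KO replicate 2, against 16.1 and 13.5 in the other *Fmr1* KO mice and 16.9 to 22.1 in WT mice. The fit gave 0.27 on the log2 scale with a standard error of 0.43 (adjusted p = 0.933 from edgeR), and -0.31 without *Fmr1* KO replicate 2, so the ratio of means above 1.2 rested on that mouse.

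Mice within a group differed along the set. The median over the tested members of the log2 deviation from each gene's mean was -0.19, 0.022 and 0.063 in *Fmr1* KO replicates 1, 2 and 3, and -0.11, -0.029 and 0.13 in WT replicates 1, 2 and 3. Both groups spanned 0 and overlapped, with means of -0.036 in *Fmr1* KO and -0.002 in WT mice and a pooled SD of 0.129 within groups. Over all tested probes the same medians were -0.095, 0.109 and 0.029 in *Fmr1* KO replicates 1, 2 and 3, and -0.020, -0.046 and 0.047 in WT replicates 1, 2 and 3, so that *Fmr1* KO replicate 1 was the lowest mouse there as well. *Fmr1* KO replicate 2 was the highest mouse for 7 of 19 members, against 36.4% of all tested probes, and *Fmr1* KO replicate 1 the lowest for 6, against 36.6%. WT replicate 3, the mouse with 1626 raw counts of *Prl*, was the highest for 5 members, among them *Vim*, *Gbp2* and *Fkbp5*. *Fmr1* KO replicate 3, with 9 raw counts of *Prl*, was the highest for 5 members as well. By the median over all tested probes WT replicate 3 was the highest WT mouse too. The share of all probes highest in either of these mice was not counted. The part of neighbouring tissue in these values was not tested. Without WT replicate 3 the median log2 fold change of the members was 0.028, and without *Fmr1* KO replicate 1 it was 0.091. The median over all tested probes was not taken for these fits. Without *Fmr1* KO replicate 1, 10.8% of all tested probes were higher at an unadjusted p under 0.05, against 5.66% in the main fit.

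The 9 members under the count minimum were pan-reactive and A2-type genes. *Lcn2*, a siderophore-binding lipocalin, had raw counts of 11, 7 and 12 in *Fmr1* KO and 12, 10 and 19 in WT replicates 1, 2 and 3. *Timp1*, an inhibitor of matrix metalloproteinases, had 6, 13 and 6 in *Fmr1* KO and 8, 14 and 9 in WT replicates. *Steap4*, a metalloreductase, had 9, 13 and 10 in *Fmr1* KO and 7, 8 and 13 in WT replicates. All 3 lay around the floor of low probes in both groups. *Cd44*, the hyaluronan receptor, was somewhat above it with 13, 14 and 17 in *Fmr1* KO and 17, 20 and 28 in WT replicates. The A2-type genes *Ptx3* (a pentraxin), *Clcf1* (a cytokine of the interleukin-6 family), *Tgm1* (a transglutaminase), *Slc10a6* (a carrier of sulfated steroids) and *B3gnt5* (a glycosyltransferase) had between 4 and 24 raw counts. For *Ptx3* these were 14, 8 and 8 raw counts in *Fmr1* KO and 4, 7 and 10 in WT replicates.

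The raw counts of these 9 genes had a median of 11, 13 and 10 in *Fmr1* KO replicates 1, 2 and 3 and of 9, 9 and 13 in WT replicates. After scaling, the median was 22.3 in *Fmr1* KO replicate 2, against 8.43 and 11.3 in the other *Fmr1* KO mice and 8.44 to 12.0 in WT mice. That mouse was the highest for 6 of the 9, whose ratios of means were between 1.13 and 1.85. It was the highest for 36.4% of all tested probes, and the share among the 133 low probes was not counted. Those low probes averaged 17.9 after scaling in that mouse, against 8.04 to 9.31 in the other mice. *Slc10a6* was the extreme, with 24 raw counts in *Fmr1* KO replicate 2, which scaled to 41.2, against 8.43 and 9.01 in the other *Fmr1* KO mice and 8.97 to 14.1 in WT mice. For comparison, 10 genes of blood leukocytes (lymphocytes and granulocytes), none of which passed the minimum, had 2 to 21 raw counts.

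**Figure D4:**
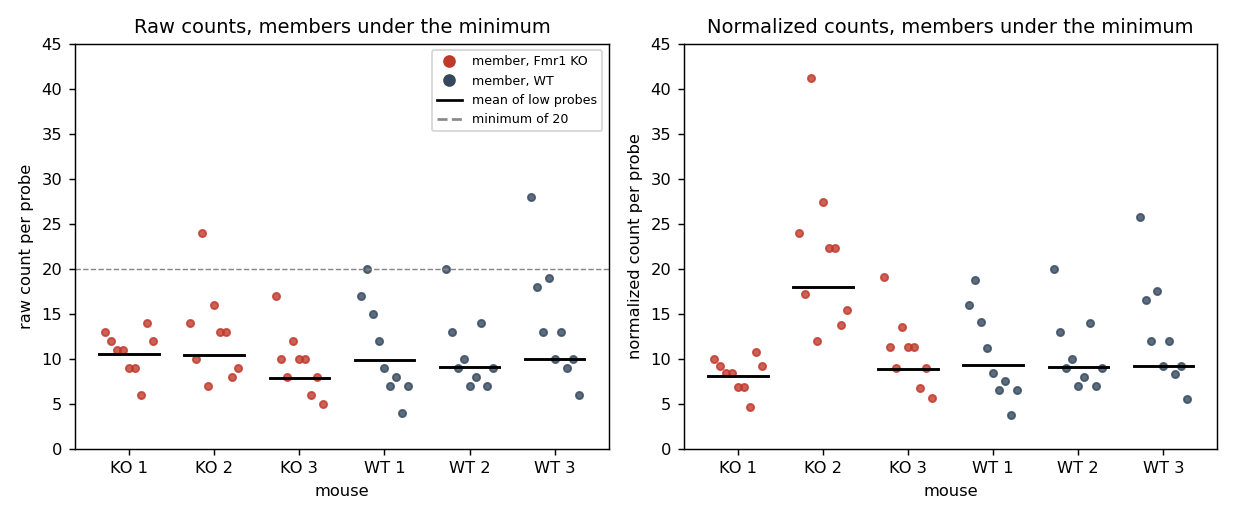
Raw counts (left) and normalized counts (right) of the 9 members under the count minimum in each mouse, 1 point per gene, with the mean of 133 low probes as a black bar and the minimum of 20 raw counts dashed. Raw medians lie between 9 and 13 in every mouse, and the scaled median is 22.3 in *Fmr1* KO replicate 2.

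Genes of the same 3 sets that were not on the list, and of the signals that act on them, were read from lists of their own. Of 4 tested genes of the sets (*Tm4sf1*, *Psmb8*, *Cd14* and *Serping1*), 0 passed the adjusted threshold from edgeR. *Tm4sf1*, an A2-type tetraspan protein, had 198 ± 6.33 normalized counts in *Fmr1* KO and 166 ± 9.32 in WT mice (SD, n = 3 each). Its fitted difference was 0.25 on the log2 scale (adjusted p = 0.581 from edgeR). *Psmb8*, an immunoproteasome subunit counted as A1-type, had 38.9 ± 5.86 in *Fmr1* KO and 49.2 ± 4.47 in WT mice (SD, n = 3 each), with -0.37 on the log2 scale (adjusted p = 0.714 from edgeR). Every *Fmr1* KO mouse lay above every WT mouse for *Tm4sf1* and below for *Psmb8*, as in 6.82% of all tested probes in each direction. The mice overlapped for *Cd14* and *Serping1*. *Tm4sf1* was the only one of the 4 at an unadjusted p under 0.05. It lay on the higher side, where 5.66% of all tested probes were.

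Among A1-inducing signals and their receptors, *Il1a*, *Il1b* and *Tnf* had 3 to 16 raw counts in every lane and were not tested. The complement gene *C1qb* had a log2 fold change of -0.13. Of the 6 tested genes of this list, 0 passed the adjusted threshold from edgeR, and *Il1r1*, the interleukin-1 receptor, was the only one at an unadjusted p under 0.05, with 65.2 ± 19.4 normalized counts in *Fmr1* KO and 42.6 ± 4.08 in WT mice (SD, n = 3 each) and a log2 fold change of 0.57 (adjusted p = 0.581 from edgeR). Its groups of mice overlapped, and 5.66% of all tested probes had an unadjusted p under 0.05 on the higher side. In the interleukin-6 and STAT3 list, *Lifr*, the receptor of leukemia inhibitory factor, had 338 ± 35.3 in *Fmr1* KO and 348 ± 12.0 in WT mice (SD, n = 3 each). *Il6ra* and *Myc* were the other tested genes of that list. In it 0 of the 3 had an unadjusted p under 0.05, against 8.49% of all tested probes in either direction. Among 3 tested glucocorticoid-responsive genes 0 passed the adjusted threshold, and *Nfkbia*, an inhibitor of NF-κB, and *Hsd11b1*, which regenerates glucocorticoids, had log2 fold changes of 0.495 and -0.44 (adjusted p = 0.552 and 0.614 from edgeR), beside -0.27 for *Fkbp5*. *Nfkbia* was the only one of the 3 at an unadjusted p under 0.05, on the higher side, where 5.66% of all tested probes were. Every *Fmr1* KO mouse lay above every WT mouse for *Nfkbia* and below for *Hsd11b1*, as in 6.82% of all tested probes in each direction. The nearest *Fmr1* KO and WT mice had 55.96 and 55.81 normalized counts of *Nfkbia*, and 73.8 and 74.1 of *Hsd11b1*.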

How the data were processed

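Hypothalamic RNA of 3 *Fmr1* KO and 3 WT female mice was counted on the nCounter instrument, 1 lane per mouse. The deposited raw table holds whole counts per probe, not normalized, which the authors exported from the instrument's software. The authors' deposited value table holds a signal, the raw count times 1 factor per lane, which the methods base on housekeeping genes of the panel. Factors were read as the median ratio of both tables over probes above 500 counts, and all values lay within 0.0065 of that product. A deposited percent of lanes above the authors' threshold was not used.

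Probes were named by RefSeq accession in 772 cases and by the table's symbol in 15, with names from GRCm38.p6. Samples were grouped by the genotype label. The labels give each mouse as a separate sample, and no lanes of 1 group differed by less than sampling noise (chi-square over its degrees of freedom at least 2.72).

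Probes with more than 20 raw counts in at least 3 of 6 lanes were tested. Raw counts were fitted with edgeR 4.0.16 (glmQLFit, glmQLFTest) in R 4.3.3 with lane sizes from the authors' factors. Adjusted p-values are Benjamini-Hochberg values across all 601 probes in the fit. Standard errors are the log2 fold change over the square root of F, and 95% intervals use the fit's degrees of freedom. The fit was tested on simulated data. Total counts of 165514 to 339934 per lane leave a probe near 20 counts with a large counting error.

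Members given by mouse are those at an unadjusted p under 0.05, *Serpina3n*, the 4 with the highest mean count among the pan-reactive, A1-type and A2-type genes and the 3 highest and lowest log2 fold changes. The members and lists were chosen with earlier results of these data known. Alternatives in edgeR were TMM and median-ratio scaling, no filter, a minimum of 50 for the mean raw count, the replicate number as a block and each mouse left out. Others were DESeq2 1.42.0, a t-test, and limma 3.58.1 with trend at pseudocounts of 1 and 10. The authors' value table and subtraction of the low-probe mean were fitted with limma as well. The t-test assumed equal variances and used log2 normalized counts. The paper names the t-test in its general statistics. For these counts it names nSolver with its Advanced Analysis, which was not rerun.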

Additional observations from a re-analysis of the deposited data

How the results depend on the processing

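Across 17 alternatives, 0 members passed an adjusted p of 0.05 in any, and the smallest adjusted p among the members named by mouse was 0.266, for *Serpina3n* with TMM from edgeR. On the lower side, 2 members had an unadjusted p under 0.05 in the main fit. That count was 1 with a minimum of 50 for the mean raw count (which leaves 11 members) and 0 in DESeq2. It was 1 with the t-test, 1 with the replicate number as a block, and 0 to 3 with each mouse left out. Of all probes in the same fits, 3.49% were on that side with the minimum of 50, 1.5% in DESeq2 and 3.16% with the t-test. With the block the share was 2.5%, with each mouse left out 1.83% to 4.16%, and in the main fit 2.83%. The count on the higher side, 0 in the main fit, was 1 with the t-test (*Osmr*) and 0 to 1 with each mouse left out. Of all probes, 4.33% were on the higher side with that test and 5.66% in the main fit. The share was 3.33% to 10.8% with each mouse left out, and 10.8% without *Fmr1* KO replicate 1, where the count was 1. The median log2 fold change of the members was -0.11 to 0.091 with each mouse left out, and -0.093 to -0.032 in the other alternatives. Same-numbered mice correlated at -0.059, -0.077 and 0.10 in their deviations, so the numbers were not taken as pairs. With the replicate block, *Serpina3n* had an adjusted p of 0.44 and its log2 fold change was -0.29.

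Of 14 members named by mouse, 7 changed sign when 1 mouse was left out, with ranges over the mice of -0.20 to 0.026 for *Vim*, -0.30 to 0.014 for *Gbp2*, -0.40 to 0.074 for *Hspb1*, -0.11 to 0.34 for *Cp*, -0.019 to 0.27 for *Srgn*, -0.006 to 0.46 for *Ptgs2* and -0.31 to 0.55 for *Socs3*. The cause was not tested. With low probes subtracted, the median of the A1-type genes was -0.31 in the limma fit. For *Socs3*, near the minimum, counting alone gives a coefficient of variation of 23.6% in *Fmr1* KO and 22.6% in WT mice.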
